A study of Mus musculus with 8 samples.

Results

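The Sprouty genes (Spry1, Spry2, Spry3 and Spry4) and the Spred genes (Spred1, Spred2 and Spred3) encode feedback inhibitors of Ras-ERK signalling, and their RNA was followed in mouse malignant peripheral nerve sheath tumours treated with a MEK inhibitor, rapamycin or both. The 7 genes were chosen by name, with earlier results of these data known, so counts over them are a description. All 7 were measured among 19938 genes on the arrays, each through the probe sets that the platform annotates to that symbol alone. For a gene with more than 1 such probe set, the one with the highest mean over all arrays was used. This applied only to Spred2, which has 2 probe sets and whose other probe set is described beside its own result.

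All 8 arrays come from primary tumours of NPcis mice, a model in which null alleles of Nf1 and Trp53 lie in cis on 1 chromosome, so every group, the vehicle group included, shares that background. The groups hold 2 arrays each and had received, for 14 hours, PD-0325901 (a MEK inhibitor, 1.5 mg/kg by oral gavage, 2 doses per day), both drugs (here called the combination), rapamycin (an mTORC1 inhibitor, 5 mg/kg by intraperitoneal injection) or vehicle. The labels give neither the animals' age nor whether the arrays of a group come from separate animals, so the p-values measure only the spread between these samples, which may be technical. Values are deposited log2 values of 1 probe set per gene, so levels are compared between arrays and never between genes.

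As background, ERK is the last kinase of the Ras, Raf, MEK cascade, and its activity raises transcription of several of its own inhibitors. Sprouty proteins act at or below receptor tyrosine kinases, for instance by binding the adaptor Grb2 and the ubiquitin ligase Cbl. Spred proteins share the cysteine-rich Sprouty domain and add an EVH1 domain, and through the EVH1 domain Spred1 binds neurofibromin, the Ras GTPase-activating protein encoded by Nf1, and brings it to the plasma membrane. In humans, loss of 1 copy of SPRED1 causes Legius syndrome, a condition with features of neurofibromatosis type 1.

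The promoters of Spred1 and Spred2 are shown because these 2 genes separated the arrays with PD-0325901 from those without it, and that of Spry1 because its values followed the individual array instead of the drug. Of the 7 genes, 5 have a promoter in the RefSeq table used here (build GRCm38.p6, 250 bases before the start site to 50 after it), and these 3 lie at chr2:117120821-117121120 (plus strand), chr11:19924192-19924491 (plus strand) and chr3:37639697-37639996 (plus strand), in the order listed. Capitals mark CGGAAG, the core of many ETS factor sites, and TGACGT, part of the cyclic AMP response element, on either strand.
Spred1: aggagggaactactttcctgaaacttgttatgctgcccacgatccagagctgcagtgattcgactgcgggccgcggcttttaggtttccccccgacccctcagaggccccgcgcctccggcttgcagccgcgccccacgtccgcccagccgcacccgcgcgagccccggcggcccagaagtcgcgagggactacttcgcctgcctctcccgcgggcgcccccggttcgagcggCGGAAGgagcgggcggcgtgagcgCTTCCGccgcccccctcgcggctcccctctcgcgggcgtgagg
Spred2: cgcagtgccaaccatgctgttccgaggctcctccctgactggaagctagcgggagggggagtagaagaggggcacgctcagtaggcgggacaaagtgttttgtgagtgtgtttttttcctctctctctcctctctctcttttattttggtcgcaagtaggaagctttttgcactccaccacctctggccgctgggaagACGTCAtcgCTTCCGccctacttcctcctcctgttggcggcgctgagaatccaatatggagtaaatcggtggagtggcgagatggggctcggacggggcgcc
Spry1: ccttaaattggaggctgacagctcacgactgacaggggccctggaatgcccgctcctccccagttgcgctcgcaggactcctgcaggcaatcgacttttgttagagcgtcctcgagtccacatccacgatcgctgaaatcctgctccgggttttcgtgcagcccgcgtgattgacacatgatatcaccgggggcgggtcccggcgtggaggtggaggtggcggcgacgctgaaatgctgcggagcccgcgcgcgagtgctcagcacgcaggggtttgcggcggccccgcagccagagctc

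CGGAAG occurred at positions -17 to -12 and, on the opposite strand, at 8 to 13 of Spred1, and at -43 to -38 of Spred2 on the opposite strand, counted from the start site. TGACGT occurred once, at -52 to -47 of Spred2 on the opposite strand. In the windows of Spry1, Spry2 and Spred3 neither motif was found. Of 32851 windows of the same length in the table, 16.9% held CGGAAG and 7.51% held TGACGT. The AP-1 motif TGANTCA (7.81% of windows) was found in none of the 5 windows. The GC box GGGCGG (35.7% of windows) was found in those of Spred1 (3 matches), Spred3 (3 matches), Spred2 and Spry1 (1 match each), and the match in Spred2 overlaps its CGGAAG. The motifs were chosen with the sequences in view, and a match describes letters and not a bound factor.

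Spred1 and Spred2 were lower on all 4 arrays that had PD-0325901, with or without rapamycin, than on any of the 4 without it, and the other 5 genes were not. The same full separation in this direction occurred in 2.39% of all genes (477 of 19938). No gene of the family passed an adjusted p of 0.05 in any comparison. In the limma fit of 2 groups of 4 arrays 22 of 19938 genes passed (0.11%), 21 higher and 1 lower with PD-0325901. From 0 to 65 passed when single arrays were left out. When limma was fitted with 4 group means, none did (0 genes) for the main effect of PD-0325901, the mean of its difference without and with rapamycin (0.0%, with 1915 at an unadjusted p under 0.05). The differences below are therefore given as values.

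**Figure D1:**
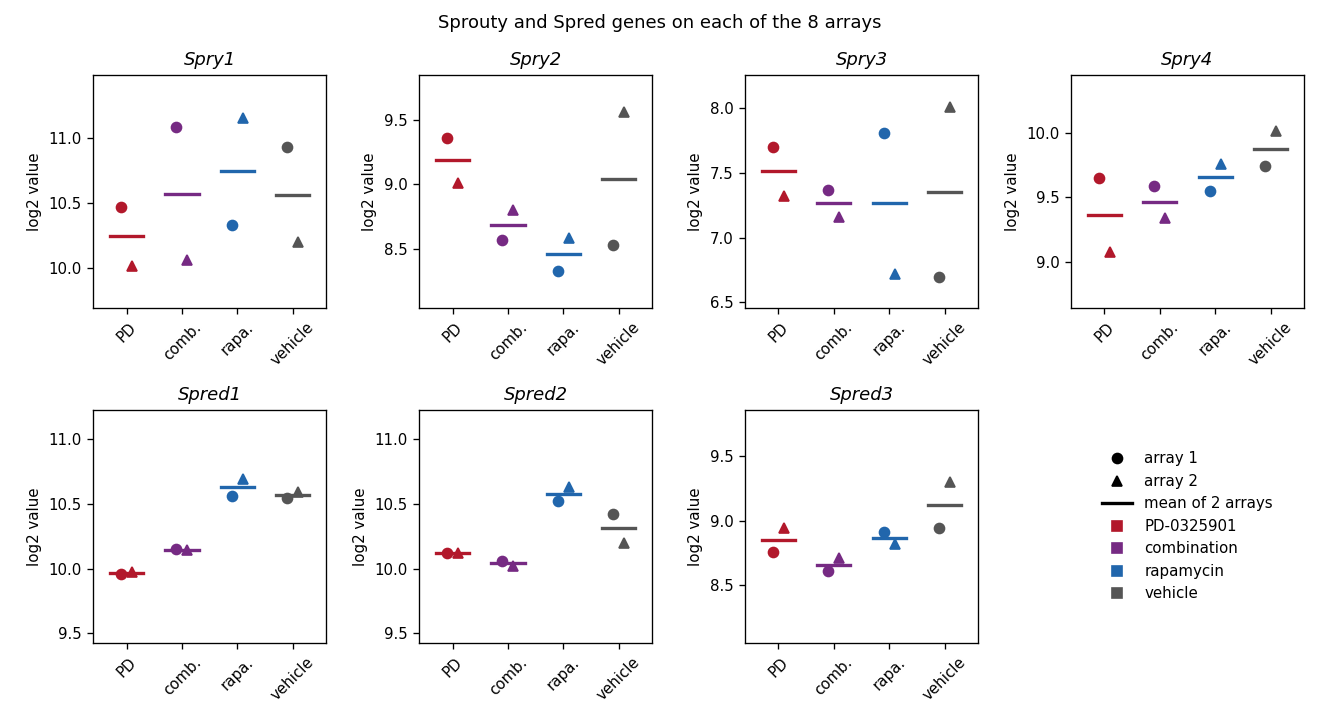
Log2 value of each gene (vertical axis, panels of equal height) on the 2 arrays of each group (horizontal axis), with a bar at the mean. Spred1 and Spred2 lie lower on the 4 PD-0325901 and combination arrays than on the 4 rapamycin and vehicle arrays, while the arrays of a group lie up to 1.3 apart for Spry3 and 0.01 to 0.13 apart for Spred1.

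Spred1, the adaptor that brings neurofibromin to the membrane, had log2 values of 9.96 and 9.97 on the PD-0325901 arrays and 10.15 and 10.14 on the combination arrays, against 10.56 and 10.69 on the rapamycin arrays and 10.54 and 10.59 on the vehicle arrays. The arrays of a group differed by 0.01 to 0.13, and a gap of 0.40 lay between the highest array with PD-0325901 and the lowest without it. The mean was 10.05 ± 0.10 with PD-0325901 and 10.60 ± 0.07 without it (SD, n = 4 each). The main effect of PD-0325901 was -0.54 (SE 0.07, 95% interval -0.71 to -0.38), a linear ratio of 0.686, with a limma adjusted p of 0.141 (unadjusted 0.000185), and only 1 of the 19938 genes had a more negative moderated t. In the limma fit of 2 groups the adjusted p was 0.0568, and 0.0602 to 0.194 when single arrays were left out. The exact two-sided permutation test over 70 arrangements of the arrays gave p = 0.0286, the smallest it can give. Every gene with full separation gets this p, 2.39% of all genes in this direction and 3.34% in the other, so it adds nothing to the separation. In a bulk tumour sample, fewer cells of a type and less RNA per cell cannot be told apart.

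Set side by side, the difference of Spred1 was -0.61 (SE 0.09) in PD-0325901 against vehicle, -0.48 (SE 0.09) in the combination against rapamycin and -0.43 (SE 0.09) in the combination against vehicle, a comparison that shares its vehicle arrays with the first. The limma adjusted p was 0.434, 0.575 and 0.361 in that order. Both combination arrays lay above both PD-0325901 arrays, with a difference of 0.18 (SE 0.09, 95% interval -0.05 to 0.41, limma adjusted p = 1.0), while rapamycin differed from vehicle by 0.06 (SE 0.09, 95% interval -0.17 to 0.29). Both arrays above both occurs in 16.3% of genes in the combination against PD-0325901. The interaction of the drugs, 0.12 (SE 0.13, 95% interval -0.20 to 0.45), did not pass.

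Spred2, which inhibits Ras-ERK signalling like Spred1, had values of 10.12 and 10.12 on the PD-0325901 arrays and 10.06 and 10.02 on the combination arrays, against 10.52 and 10.63 on the rapamycin arrays and 10.42 and 10.20 on the vehicle arrays. The 2 sets of 4 arrays did not overlap, but the gap was only 0.08, because vehicle array 2 lay close to the PD-0325901 arrays. The mean was 10.08 ± 0.05 with PD-0325901 and 10.44 ± 0.18 without it (SD, n = 4 each). The main effect was -0.36 (SE 0.08, 95% interval -0.56 to -0.17), a linear ratio of 0.778, with a limma adjusted p of 0.246 and of 0.237 in the fit of 2 groups, and an exact permutation p of 0.0286, the smallest possible. The other probe set of Spred2 was not used for these values. It had 9.41 and 9.44 on the PD-0325901 arrays and 9.56 and 9.25 on the combination arrays, against 9.85 and 10.08 on the rapamycin arrays and 9.86 and 9.63 on the vehicle arrays. It too separated the 2 sets of arrays, with a difference of -0.44 and a gap of 0.07.

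The Spred2 difference was -0.53 (SE 0.11, limma adjusted p = 0.575) in the combination against rapamycin and -0.19 (SE 0.11, adjusted p = 0.984) in PD-0325901 against vehicle. Both rapamycin arrays lay above both vehicle arrays, and both combination arrays lay below both PD-0325901 arrays, an arrangement found in 1.41% of all genes. The interaction term, the test of that difference, was -0.34 (SE 0.16, 95% interval -0.72 to 0.05) with a limma adjusted p of 1.0 and an unadjusted p of 0.0742. On the other probe set the rapamycin arrays overlapped the vehicle arrays and the combination arrays overlapped the PD-0325901 arrays, with differences of 0.22 and -0.02. Its difference was -0.56 in the combination against rapamycin and -0.32 in PD-0325901 against vehicle. On the probe set used, PD-0325901 against vehicle was -0.09 when vehicle array 1 was left out and -0.30 when vehicle array 2 was.

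Spred3, the third Spred gene, had 8.76 and 8.94 on the PD-0325901 arrays and 8.61 and 8.71 on the combination arrays, against 8.91 and 8.82 on the rapamycin arrays and 8.94 and 9.30 on the vehicle arrays. Vehicle array 2 was the highest and the combination arrays were the lowest, and arrays with and without PD-0325901 overlapped. The largest Spred3 difference was in the combination against vehicle, -0.46 (SE 0.15, 95% interval -0.83 to -0.09, limma adjusted p = 0.468). Main effects of similar size were seen for PD-0325901, -0.24 (SE 0.11), and for rapamycin, -0.22 (SE 0.11), with limma adjusted p of 0.565 and 0.898. Without vehicle array 2 the combination against vehicle was -0.28, the main effect of PD-0325901 -0.15 and that of rapamycin -0.13.

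**Figure D2:**
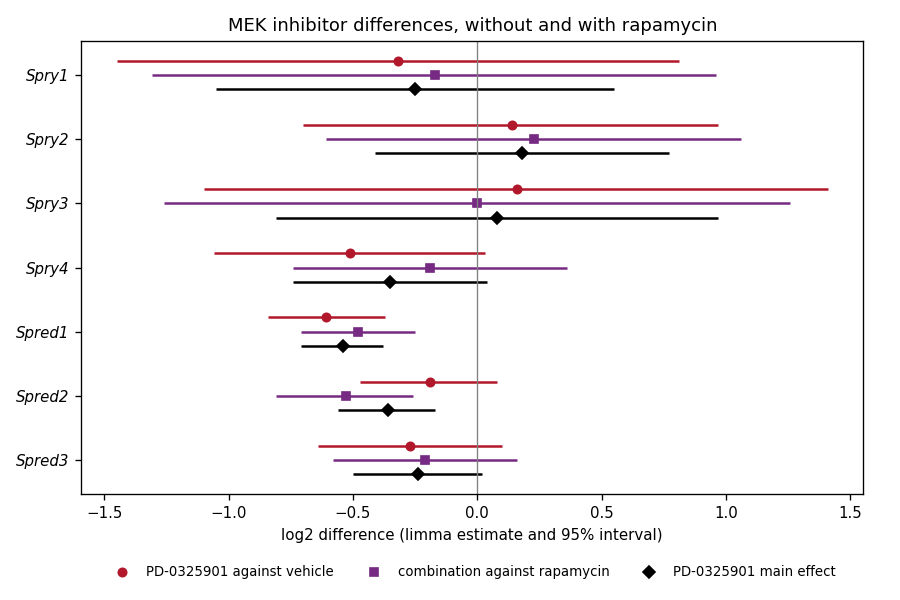
Log2 differences of the 7 genes (horizontal axis, limma estimate as a point and 95% interval as a line) in PD-0325901 against vehicle, in the combination against rapamycin and as the main effect of PD-0325901. The main effect's interval lies below 0 for Spred1 (-0.71 to -0.38) and Spred2 (-0.56 to -0.17) and reaches past 0 for the other 5 genes.

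Among the Sprouty genes, Spry4 came closest to the Spred pattern. Spry4, an inhibitor of receptor-driven ERK activation, had 9.65 and 9.08 on the PD-0325901 arrays and 9.59 and 9.34 on the combination arrays, against 9.55 and 9.76 on the rapamycin arrays and 9.74 and 10.01 on the vehicle arrays. PD-0325901 array 2 was the lowest and vehicle array 2 the highest, and rapamycin array 1 lay below PD-0325901 array 1 and combination array 1. The main effect of PD-0325901 was -0.35 (SE 0.16, 95% interval -0.74 to 0.04, limma adjusted p = 0.569, exact permutation p = 0.0857 over the 70 arrangements). It was -0.51 (SE 0.22) in PD-0325901 against vehicle and -0.19 (SE 0.22) in the combination against rapamycin. Without PD-0325901 array 2 the main effect was -0.21. Leaving out single arrays gave -0.80 (PD-0325901 array 1) to -0.23 (PD-0325901 array 2) in PD-0325901 against vehicle, and -0.32 (combination array 1), -0.30 (rapamycin array 1), -0.08 (rapamycin array 2) and -0.06 (combination array 2) in the combination against rapamycin. PD-0325901 array 2 also had the highest sum of 3 erythroid markers, 29.0 against 21.9 to 23.5 on the others, whose part in the result was not tested.

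Spry2, which binds Cbl and Grb2, showed its larger differences with rapamycin and not with PD-0325901. It had 8.57 and 8.80 on the combination arrays and 8.33 and 8.59 on the rapamycin arrays, against 9.36 and 9.01 on the PD-0325901 arrays and 8.53 and 9.56 on the vehicle arrays. The arrays with rapamycin lay within 8.33 to 8.80, and of those without it only vehicle array 1 fell in that range. The mean was 8.57 ± 0.19 with rapamycin and 9.12 ± 0.45 without it (SD, n = 4 each). The main effect of rapamycin was -0.55 (SE 0.24, 95% interval -1.14 to 0.04, limma adjusted p = 0.897, exact permutation p = 0.1143), and -0.29 without vehicle array 2. For this effect 0 of all genes passed in limma (0.0%, 1107 at an unadjusted p under 0.05). The main effect of PD-0325901 on Spry2 was 0.18 (SE 0.24, 95% interval -0.41 to 0.77), opposite in sign to that of the Spred genes, and was -0.08 without vehicle array 1.

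Spry1 and Spry3 varied between arrays of the same group more than between groups. Spry1, a feedback inhibitor of growth factor receptors such as Ret in the developing kidney, had 10.47 and 10.02 on the PD-0325901 arrays and 11.09 and 10.06 on the combination arrays, against 10.33 and 11.16 on the rapamycin arrays and 10.93 and 10.20 on the vehicle arrays. Rapamycin array 2, combination array 1 and vehicle array 1 stood at 10.93 to 11.16, and the other 5 arrays at 10.02 to 10.47. Its main effect of PD-0325901 was -0.25 (SE 0.33, 95% interval -1.05 to 0.55, limma adjusted p = 0.894), so the interval holds differences as large as that of Spred1 in either direction.

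Spry3 had 7.70 and 7.32 on the PD-0325901 arrays and 7.37 and 7.16 on the combination arrays, against 7.81 and 6.72 on the rapamycin arrays and 6.70 and 8.01 on the vehicle arrays. The vehicle arrays were its highest and lowest, 1.3 apart. The main effect of PD-0325901 was 0.08 (SE 0.36, 95% interval -0.81 to 0.97, limma adjusted p = 0.975).

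Spry1 was high on the 3 arrays with the lowest sums of fibroblast markers, and Spry3 was lowest on 2 of them. The summed log2 values of 10 fibroblast markers (10 of 10 listed were measured) were 102.3 on rapamycin array 2 and 102.5 on vehicle array 1, where Spry3 was lowest, then 108.7 on combination array 1, and 112.5 to 117.1 on the other 5. By group the sums were 112.5 and 112.9 for PD-0325901, 108.7 and 115.3 for the combination, 102.3 and 117.1 for rapamycin and 102.5 and 115.3 for vehicle. Of the 10 markers, 3 (Pdgfra, Dcn and Lum, singled out after their values were seen) were lower on all 3 of those arrays than on the other 5. The collagen-binding proteoglycan gene Lum was at 8.21, 8.62 and 7.82 on them and at 10.91 to 11.93 on the others. The matrix protein gene Dpt was at 8.33 on rapamycin array 2 and 9.03 on vehicle array 1, but at 12.18 on combination array 1, within the 12.15 to 12.82 of the other 5. Not all markers followed the sums. Combination array 1 had the highest Col1a1 of the 8 arrays, 13.11. Thy1 was at 11.66 on vehicle array 1 and 11.85 on combination array 1, above all others but rapamycin array 1 (12.24), and at 10.01 on rapamycin array 2. The part of fibroblast content in the Spry1 and Spry3 values was not tested. Without rapamycin array 2 and vehicle array 1, an alternative chosen after the data were seen, the main effect of PD-0325901 was 0.14 for Spry1, -0.01 for Spry2, -0.52 for Spry3 and -0.36 for Spry4, against -0.52 for Spred1, -0.28 for Spred2 and -0.35 for Spred3, with no limma adjusted p under 0.05.

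**Figure D3:**
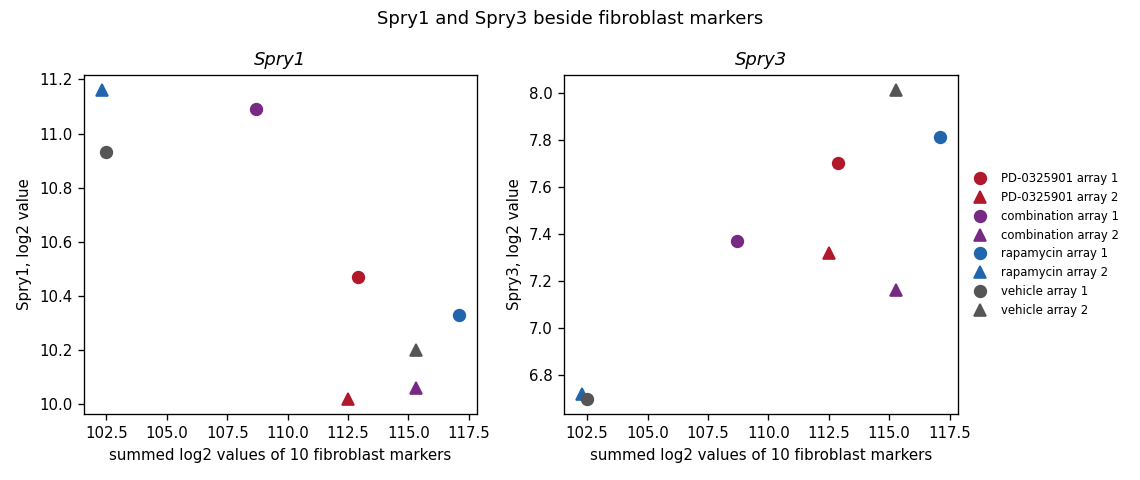
Log2 value of Spry1 (left) and Spry3 (right) on each of the 8 arrays (vertical axes) against the summed log2 values of 10 fibroblast markers on the same array (horizontal axes). Rapamycin array 2 and vehicle array 1 have the lowest sums, 102.3 and 102.5, with high Spry1 and the 2 lowest Spry3 values.

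The split of each gene's variation over the 8 arrays describes the same contrast between the genes. The PD-0325901 term took 92.9% of the sum of squares for Spred1, 71.5% for Spred2 (72.0% on its other probe set), 43.9% for Spry4, 37.1% for Spred3, 8.18% for Spry1, 5.04% for Spry2 and 0.752% for Spry3. Rapamycin took 45.2% for Spry2 and 32.1% for Spred3 and under 10% for the other genes. Differences between the 2 arrays of a group took 1.58% for Spred1, against 95.0% for Spry3 and 82.3% for Spry1. These shares are a description and not a test, since a drug term also takes up part of the spread between arrays. The 95% intervals of the PD-0325901 main effect for Spry4 and Spred3 and of the rapamycin main effect for Spry2 and Spred3 all held 0.

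**Figure D4:**
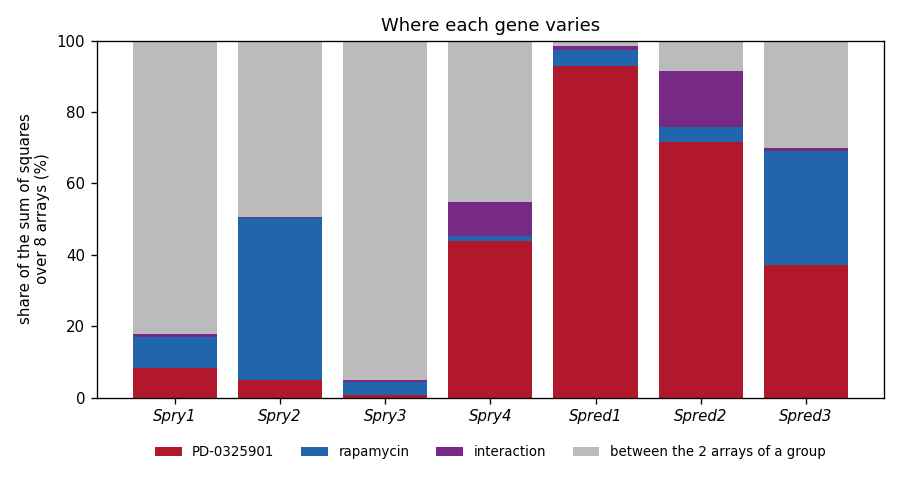
Share of the sum of squares over the 8 arrays (vertical axis, percent) taken by PD-0325901, rapamycin, their interaction and the difference between the 2 arrays of a group, as stacked bars for each of the 7 genes. The PD-0325901 share is 92.9% for Spred1 and 71.5% for Spred2, and the share between arrays of a group is 95.0% for Spry3 and 82.3% for Spry1.

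Over the family, the median main effect of PD-0325901 was -0.25, with 5 of 7 genes below 0, beside a median of -0.01 over all genes, of which 54.0% lay below 0. The 3 Spred genes had a median of -0.36 (3 of 3 below 0) and the 4 Sprouty genes -0.08 (2 of 4 below 0). Both arrays lay below both for 3 of 7 genes in PD-0325901 against vehicle (Spry4, Spred1 and Spred2), beside 20.9% of all genes, and for 3 of 7 in the combination against rapamycin (the Spred genes), beside 15.1%. In the combination against vehicle 6 of 7 lay below 0 (53.7% of all genes), the exception being Spry1 at 0.01, and 4 of 7 (Spry4 and the 3 Spred genes) had both arrays below both, beside 22.3% of all genes. For the rapamycin main effect 4 of 7 lay below 0, beside 53.8% of all genes.

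The genes whose values over the 8 arrays were most like each member's were ranked by Pearson's r, given as a description over 8 arrays that share their normalization. For Spred1 these were the transcription factors Zfx (0.959) and Foxd2 (0.957) and Cep170b (0.945). For Spred2 they were the heat shock co-chaperone Bag3 (0.981), Disp2 (0.980) and Rheb, the GTPase that activates mTORC1 (0.969). For Spry4 they were Tmem39b (0.977), Gnpnat1 (0.961) and Efcab7 (0.960), and for Spred3 Ccdc105 (0.956), Hnrnpd (0.952) and Tectb (0.947). For Spry1 they were the estrogen-binding receptor Gper1 (0.989), Fam222b (0.985) and Knstrn (0.977), for Spry2 Mirlet7i (0.973), St6gal2 (0.957) and Actl10 (0.956), and for Spry3 Hdgfl3 (0.978), Lgi2 (0.965) and Wwc1 (0.963). No member was among the 3 nearest genes of another. Some of these genes varied little over the arrays, such as St6gal2 (6.18 to 6.35), Actl10 (8.03 to 8.29) and Tectb (6.65 to 6.94). Others ranged more widely, such as Lgi2 (7.60 to 9.21).

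Other genes that ERK signalling induces were compared as a list of 20, all measured. This list, like those below, was chosen with earlier results of these data known, so its counts are a description. The main effect of PD-0325901 was below 0 for 20 of 20, beside 54.0% of all genes. The median was -0.45, beside -0.01 over all genes, and 0 passed the limma threshold. In 5 of 20 (Dusp5, Etv5, Hbegf, Plaur and Ets2) all 4 arrays with PD-0325901 lay below all 4 without it, beside 2.39% of all genes. The transcription factor gene Ets2 had a difference of -0.72 (SE 0.11, limma adjusted p = 0.148) and the EGF receptor ligand gene Hbegf -1.27 (SE 0.21, adjusted p = 0.165). The phosphatase gene Dusp5 had -0.75 (SE 0.22) and the urokinase receptor gene Plaur -0.79 (SE 0.26). For the rapamycin main effect the list was split, with 10 below and 10 above 0.

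Of other feedback inhibitors, 9 of 12 had a PD-0325901 main effect below 0 (median -0.11), beside 54.0% of all genes. The cytokine signalling inhibitor gene Socs2, with -0.69 (SE 0.15, limma adjusted p = 0.243), was the 1 of 12 with all 4 arrays lower, beside 2.39% of all genes. Errfi1, an inhibitor of EGF receptor kinases, had -0.26 (SE 0.12), Sh2b3, an adaptor that damps cytokine receptors, -0.25 (SE 0.11) and the G protein regulator gene Rgs2 0.31 (SE 0.11). None of the 12 passed.

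The kinases, adaptors and exchange factors of the cascade showed smaller differences. Of the 13 of 20 cascade genes measured, 8 had a main effect below 0 (median -0.07), beside 54.0% of all genes, and 5 above. None separated the arrays and 0 passed. The largest moderated t values belonged to the exchange factor gene Sos1 (-0.19, SE 0.08), the adaptor gene Grb2 (0.23, SE 0.12), the phosphatase gene Ptpn11 (-0.28, SE 0.15) and Map2k1, which encodes a target of the drug (-0.28, SE 0.15). Of 7 measured Ras GTPase-activating genes, 5 lay below 0 (median -0.22), beside 54.0% of all genes. Rasal2 (-0.44, SE 0.14) was the 1 of 7 with all 4 arrays lower, beside 2.39% of all genes. Rasa2 (-0.51, SE 0.17) and Nf1, the partner of Spred1 (-0.27, SE 0.15, limma adjusted p = 0.655), also lay below 0, while Rasal1 had 0.07 (SE 0.07).

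Of 14 genes for binding partners and regulators of the family, 9 lay below 0 (median -0.08), beside 54.0% of all genes. Mknk1, an ERK-activated kinase, was the 1 that separated the arrays, being higher on all 4 with PD-0325901 (0.44, SE 0.14, limma adjusted p = 0.413), beside 3.34% of all genes in that direction. The ubiquitin ligase gene Siah2 had -0.30 (SE 0.12), the kinase gene Dyrk1a -0.27 (SE 0.11) and the stem cell factor receptor gene Kit -0.43 (SE 0.17). Of 14 measured genes for receptors whose signal the family damps, 10 lay below 0 (median -0.31), beside 54.0% of all genes. Erbb2, at -0.33 (SE 0.07, limma adjusted p = 0.260), was the 1 of 14 lower on all 4 arrays with PD-0325901, beside 2.39% of all genes. The VEGF receptor genes Flt1 and Kdr had -0.73 (SE 0.22) and -0.37 (SE 0.14), and the PDGF receptor gene Pdgfrb had -0.43 (SE 0.17). No gene of these lists passed the threshold.

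Markers of the cell types the tumours could hold are given here beside the Spred genes. None of them passed the limma threshold, and the summed levels of arrays with and without PD-0325901 overlapped for every list. For endothelial markers (12 of 12 measured) the summed log2 values were 111.6 to 118.1 with PD-0325901 and 114.3 to 124.3 without it. The main effect was below 0 for 11 of 12 (median -0.44), beside 54.0% of all genes. Emcn was the 1 of 12 lower on all 4 arrays, beside 2.39% of all genes. In the combination against rapamycin, where Spred1 differed by -0.48 and Spred2 by -0.53, 12 of the 12 lay below 0 (median -0.74). Of all genes 51.7% lay below 0 there. The endothelial sums were 111.6 and 113.9 on the combination arrays and 124.3 and 117.3 on the rapamycin arrays. In PD-0325901 against vehicle, where Spred1 differed by -0.61 and Spred2 by -0.19, 6 of the 12 lay below 0 (median -0.05). Of all genes 53.8% did so, and the endothelial sums were 112.6 and 118.1 with PD-0325901 and 118.7 and 114.3 with vehicle. Macrophage markers (12 of 12) summed to 130.6 to 135.7 with and 127.9 to 131.2 without the drug. Their main effect was above 0 for 11 of 12 (median 0.39), while 54.0% of all genes lay below 0. Of these 12, 4 (Adgre1, Csf1r, Fcgr1 and Mertk) were higher on all 4 arrays, beside 3.34% of all genes. T and NK cell markers (11 of 12) summed to 84.1 to 95.1 with and 78.3 to 85.0 without it. Their main effect was above 0 for 11 of 11 (median 0.62), while 54.0% of all genes lay below 0. Of these 11, 2 (Klrb1c and Ncr1) were higher on all 4 arrays, beside 3.34% of all genes. In the combination against rapamycin the macrophage median was 0.37 and the T and NK cell median 0.92. In PD-0325901 against vehicle they were 0.49 and 0.32. Fibroblast markers summed to 108.7 to 115.3 with and 102.3 to 117.1 without it, and 3 of 6 erythroid markers to 21.9 to 29.0 with and 22.4 to 23.5 without it. Schwann cell markers (8 of 10) summed to 61.2 to 63.3 with and 59.7 to 61.9 without it. The main effect was above 0 for 6 of 10 fibroblast (median 0.07), 3 of 3 erythroid (median 0.51) and 6 of 8 Schwann cell markers (median 0.02). Over all genes 54.0% lay below 0. The erythroid sum of 29.0 was that of PD-0325901 array 2, and in the combination against rapamycin 3 of 3 erythroid markers lay below 0. The files give no detection call, so presence of the Schwann lineage could not be settled from them. The defining markers S100b and Sox10 lay within 7.12 to 7.32 and 7.85 to 8.17 over the 8 arrays. Gap43 and Cdh19 ranged more widely, from 7.66 to 9.68 and from 5.40 to 7.34, with main effects of PD-0325901 of 1.14 (SE 0.44) and 1.01 (SE 0.41), limma adjusted p 0.486 and 0.525. The part of these cell types in the Spred values was not tested.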

How the data were processed

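RNA from 8 tumour samples was amplified and biotin-labelled (NuGEN Applause WT-Amp ST), per the labels' protocols. The deposited values are log2 values per probe set: they run from 3.36 to 14.36, above the natural logarithm (11.09) and below the log2 (16.0) of the highest 16-bit scanner value. How they were background-corrected and normalized, and with which software, is not given in the sources used here. Of 35511 probe sets with values, 21789 are annotated to 1 gene symbol, 1621 to several and 12101 to none. An Entrez ID match in RefSeq, found for 21698, changed 0 symbols. No filter on low values was applied. Array medians lay between 7.79 and 7.90, and Pearson correlations between arrays over all probe sets were 0.961 to 0.986 within groups and 0.963 to 0.985 between groups. The number of arrays limits the precision.

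Groups came from sample titles. A model of 4 group means and models of 2 groups (4 arrays with a drug, 4 without) were fitted with limma 3.58.1 in R 4.3.3 (lmFit and eBayes, two-sided), with Benjamini-Hochberg adjustment over all 19938 genes and a threshold of 0.05. The code was tested on simulated data. Alternatives were other normalizations, filters, variance models and probe set rules, the array number as a block, a threshold of 0.1 and leaving out arrays. The members and 12 gene lists were chosen with earlier results of these data known. Named genes are all members, up to 4 per pathway list by moderated t for the PD-0325901 main effect, and 3 per member by likeness for members whose SD is above the median SD of all genes (7 of 7). Cell type markers are named outside this rule, with their values seen.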

Additional observations from a re-analysis of the deposited data

How the results depend on the processing

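The number of genes past the threshold depended on single arrays. Against 22 in the limma fit of arrays with PD-0325901 against those without, it was 109 at a threshold of 0.1, 12 with only genes above the median level, 6 with a robust prior and a variance trend, and 0 without both vehicle array 1 and rapamycin array 2, and it ranged from 0 to 65 when arrays were left out singly: 2 and 0 without PD-0325901 array 1 or 2, 0 and 2 without combination array 1 or 2, 65 and 4 without rapamycin array 1 or 2, and 5 and 7 without vehicle array 1 or 2. In the fit of 4 group means, where 0 genes passed, leaving out single arrays gave 0 to 8 for the PD-0325901 main effect, 0 to 9 for PD-0325901 against vehicle and for the combination against vehicle, 0 to 15 for rapamycin against vehicle, and 0 to 2 for the rapamycin main effect and the interaction. Each of these was above 0 only without vehicle array 2, except rapamycin against vehicle, which had 6 genes without that array, and 4 or 15 when rapamycin array 1 or 2 was left out. The cause was not tested, beyond the smaller number of arrays. With the array number as a replicate block, 0 genes passed in place of 22. Deviations of equally numbered arrays from their group means correlated by -0.28 to 0.18 over 6 pairs of groups, so the numbers were not taken to pair the samples.

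Over all 10 comparisons and these alternatives no Sprouty or Spred gene had an adjusted p under 0.05, the lowest being 0.0527. At a threshold of 0.1 Spred1 passed in the fit of 2 groups (0.0568), but not with the replicate block (0.112), with the robust prior (0.129), or when one of PD-0325901 array 1 (0.160), PD-0325901 array 2 (0.194), combination array 1 (0.130), rapamycin array 2 (0.157) and vehicle array 2 (0.124) was left out, or rapamycin array 2 together with vehicle array 1 (0.208). Spred1 had a PD-0325901 main effect of -0.58 to -0.51 and Spred2 of -0.42 to -0.28 when arrays were left out. Of the Sprouty genes, Spry4 kept its sign and the other 3 did not. The main effect ranged from -0.50 to 0.14 for Spry1, -0.08 to 0.44 for Spry2 and -0.52 to 0.40 for Spry3, and in the fit of 2 groups from -0.47 to 0.14, -0.01 to 0.45 and -0.52 to 0.31. PD-0325901 against vehicle ranged from -0.68 to 0.04 for Spry1, -0.38 to 0.65 for Spry2 and -0.50 to 0.81 for Spry3. The combination against rapamycin ranged from -0.69 to 0.34 for Spry1 and -0.54 to 0.54 for Spry3. The combination against vehicle ranged from -0.50 to 0.52 for Spry1 (-0.01 with array medians centred), -0.88 to 0.15 for Spry2 and -0.74 to 0.56 for Spry3. Of the differences in rapamycin contrasts, the combination against PD-0325901 and the interaction, 6 were recomputed, chosen after the data were seen. Of these, Spred1 in rapamycin against vehicle changed sign (range -0.03 to 0.12, with -0.01 without rapamycin array 2 and -0.03 without vehicle array 1 as well), and the interaction of Spred2 ranged from -0.45 to -0.23. Apart from Spry1 with centred medians, the normalization, filter, variance and probe set alternatives kept the sign of every difference recomputed.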
